A study of Mus musculus with 6 samples.

Results

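The urotensin and endothelin genes were followed in smooth muscle cells freshly cultured from the oviduct of the mouse, the tube that carries the embryo to the uterus. The set held 8 of the 54232 genes in the count table: the peptide genes Uts2, Edn1, Edn2 and Edn3, the receptor genes Uts2r, Ednra and Ednrb, and Ece1, which encodes the endothelin-converting enzyme. Uts2 was selected on its count in the cKO against the WT libraries, which had fallen strongly in these same data, so its values are given as a description with no test. The other 7 genes were taken by name and were tested with all other genes.

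RNA-seq was performed on cells from females on day 2 of pregnancy, aged 8 to 12 weeks. Pbrm1 encodes a subunit of the PBAF form of the SWI/SNF chromatin remodeling complex. Of the libraries, 3 were labelled WT and 3 were labelled Pbrm1 cKO, a conditional knockout of Pbrm1. In the study this name stands for floxed Pbrm1 alleles deleted by Cre recombinase expressed from the progesterone receptor gene, and a supplementary legend calls the controls Pbrm1 fl/fl rather than wild type. Deletion therefore depends on cells that express that receptor. All oviducts were digested with enzymes, and the filtered cells were plated for 4 h and then given fresh medium for 2 h. Strain and the number of animals behind each library are not given in the labels, so p-values measure the spread between these libraries.

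Urotensin II and the endothelins are short cyclic peptides that constrict blood vessels and other smooth muscle. Each is cut from a larger precursor, and big endothelins need a further cut by endothelin-converting enzymes to become active. The urotensin receptor and both endothelin receptors are G protein-coupled receptors that act through Gq, phospholipase C and calcium release. EDNRA prefers endothelin-1 and endothelin-2 and is the main contractile receptor of muscle. EDNRB binds the 3 endothelins about equally, mediates relaxation from endothelium, clears endothelin-1 from the circulation, and contracts some muscles.

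The coding DNA of the active peptides is shown so that the peptides can be compared. Reads were counted over all exons of each gene, not over these stretches. The sequences were read from the mouse genome build GRCm38 (GENCODE transcripts), 5′ to 3′ on the coding strand. For Uts2 the last 14 of its 123 codons are given (chr4:151001636-151001677, plus strand, exon 4), with the codons of the cyclic core of urotensin II in capitals. For the endothelins the 21 codons of the mature peptide are given, with the 4 cysteine codons in capitals. They lie in exon 2 of each gene, at chr13:42303649-42303711 for Edn1, chr4:120161951-120162013 for Edn2 and chr2:174761749-174761811 for Edn3, all on the plus strand.
Uts2: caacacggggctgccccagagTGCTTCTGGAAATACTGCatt
Edn1: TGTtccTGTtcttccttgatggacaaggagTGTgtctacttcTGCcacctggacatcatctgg
Edn2: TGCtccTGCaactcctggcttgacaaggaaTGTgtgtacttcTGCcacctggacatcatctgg
Edn3: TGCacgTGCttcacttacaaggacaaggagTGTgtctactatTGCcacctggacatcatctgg

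Edn1 and Edn2 were identical at 53 of these 63 bases (84.1%) and encoded the same amino acid at 18 of 21 codons. Edn1 and Edn3 shared 50 bases (79.4%) and 15 amino acids, and Edn2 and Edn3 shared 48 bases (76.2%) and 15 amino acids. The 4 cysteine codons stood at the same positions in all 3 genes.

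Libraries held between 15390818 and 18947947 counts assigned to genes. Levels are given as CPM, in which the normalized library size is the total, and a count of 3, used as the floor, was worth 0.159 to 0.193 CPM. The targeted gene Pbrm1 (ENSMUSG00000042323.17) lay between 170 and 183 CPM in WT and between 42.7 and 50.7 CPM in cKO libraries, 26.04% of the WT mean. The progesterone receptor gene Pgr averaged 174 ± 3.20 CPM in WT cells and 168 ± 13.8 CPM in cKO cells (SD, n = 3). All 10 smooth muscle markers examined were detected, but so were markers of endothelium, fibroblasts, epithelium, leukocytes and mesothelium, so the cultures were mixed. cKO replicate 2 stood somewhat apart. It held the highest Pbrm1 level of the cKO libraries, and its chi-square per gene against the other cKO libraries was at least 1.49, against 1.31 to 1.34 for all other pairs within a group.

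Across all genes, 6723 of 15376 tested genes (43.7%) passed an adjusted p of 0.05 in edgeR's quasi-likelihood test, so a called change is common in these cells. The share was 21.9% higher and 21.8% lower in cKO, and the median log2 fold change of all tested genes was 0.0016. Of the members taken by name, Ednrb was called higher and Ece1 lower in cKO cells, and Edn1 and Ednra were not called. The libraries of both groups did not overlap for Ednrb and Ece1, which was so for 53.5% of all tested genes. Edn2 was tested too, but it passed the filter on low counts only through the group where it was higher, so it is not counted among these calls. Edn3 and Uts2r had too few counts to be tested.

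**Figure D1:**
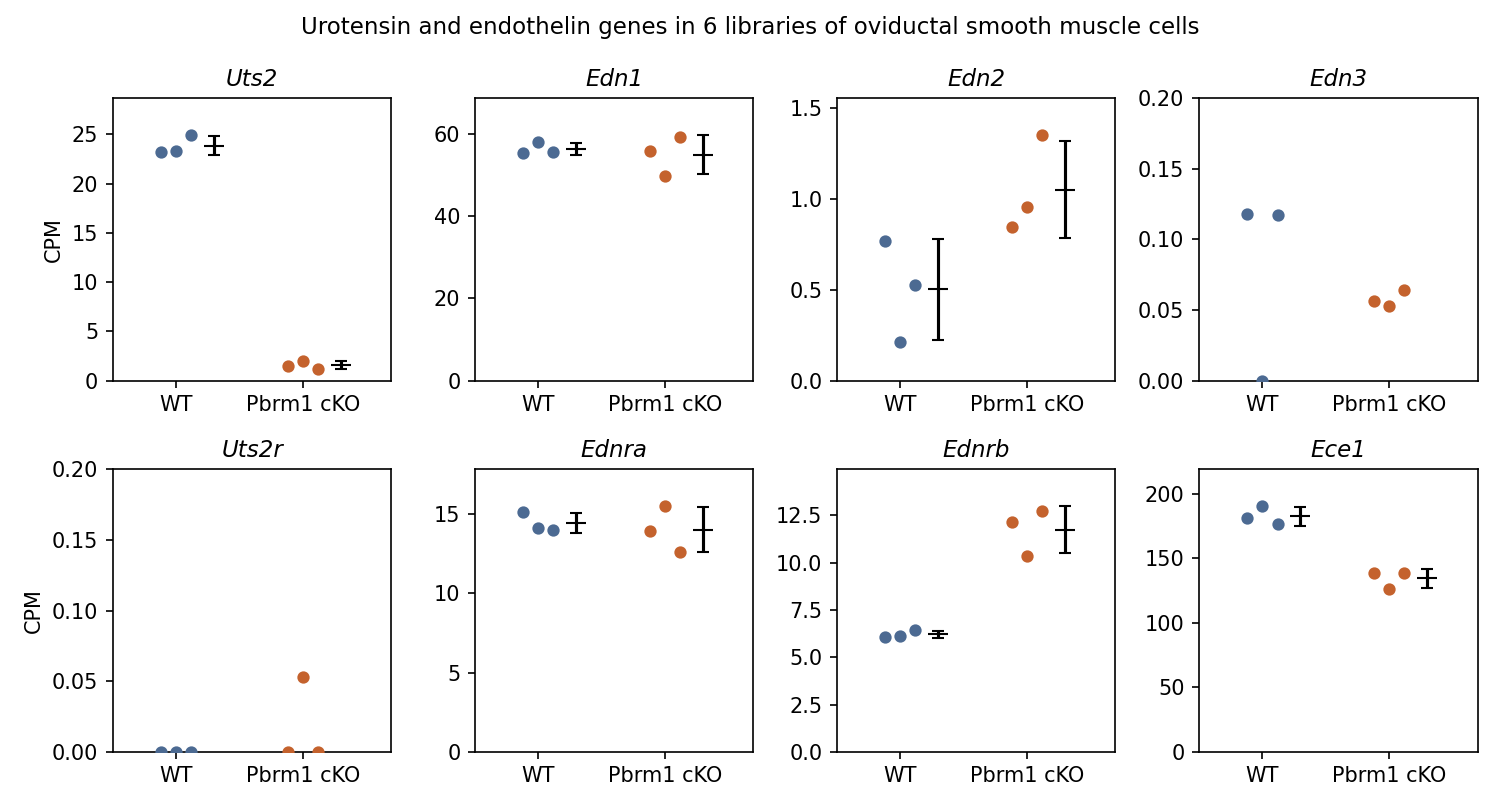
CPM of the 8 genes (vertical axes, each from 0) in 3 WT and 3 Pbrm1 cKO libraries (points, replicates 1 to 3 from left to right), with the mean and SD as a bar beside the points except for Edn3 and Uts2r, which are below the floor. Uts2 and Ece1 sit lower and Ednrb sits higher in every cKO library, while Edn1 and Ednra overlap.

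Uts2 (ENSMUSG00000028963.1, chr4:150997097-151001810, plus strand) encodes the precursor of urotensin II. The WT libraries held 393, 436 and 426 Uts2 counts, and the cKO libraries held 27, 38 and 19. The mean level was 23.8 ± 0.967 CPM in WT and 1.59 ± 0.401 CPM in cKO cells (SD, n = 3), or 6.66% of WT, a 15.0-fold difference. Every cKO library lay far below every WT library, but all were above the floor. The log2 fold change of −3.88 was exceeded in size by 0.273% of the tested genes, a rank that follows from the choice of this gene for its large fall. Within the cKO group the highest level, 2.02 CPM, was in replicate 2, the library with the most Pbrm1, and without that library the log2 fold change was −4.10. In a culture of mixed cells, fewer cells that express a gene and less RNA per cell cannot be told apart.

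Uts2 lies within the span of Camta1, a gene on the other strand, and shares no exonic base with it. The libraries were counted by strand. Camta1 itself averaged 6.78 ± 0.953 CPM in the controls, averaged 5.73 ± 0.800 CPM in cKO cells and was not called (log2 fold change −0.25, SE 0.15, edgeR adjusted p = 0.186).

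The receptor for urotensin II, Uts2r (ENSMUSG00000039321.1, chr11:121160271-121161973), had 0 counts in all 3 WT libraries and in cKO replicates 1 and 3, and 1 count in cKO replicate 2. A count of 0 allows a level of up to the floor of 0.159 to 0.193 CPM, so no difference could be measured at this depth. The ligand gene was thus well above the floor in cells whose transcripts for its known receptor were not detectable above it. None of the 8 related genes listed, which comprise the paralog Uts2b, somatostatin (Sst), cortistatin (Cort) and the somatostatin receptor genes Sstr1 to Sstr5, reached the filter on low counts, and Uts2b and Sst had 0 counts in every library.

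The 250 bases before the RefSeq start of Uts2 are shown because Uts2 is the member with the lowest level in cKO relative to WT. They lie at chr4:150996847-150997096 on the plus strand (RefSeq, build GRCm38.p6), 5′ to 3′. Capitals mark a pair of overlapping matches to TATAAA, 1 on each strand, that begin 227 and 225 bases before the start.
Uts2 upstream: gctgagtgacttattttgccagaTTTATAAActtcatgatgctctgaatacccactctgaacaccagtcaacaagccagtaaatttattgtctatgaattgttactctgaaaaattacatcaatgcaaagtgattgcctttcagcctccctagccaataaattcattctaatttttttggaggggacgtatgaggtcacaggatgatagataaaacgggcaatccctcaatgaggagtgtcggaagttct

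All 8 genes were matched to the RefSeq promoter table, with 11 start sites. The Uts2 window was AT-rich, with a GC content of 38.8% against a mean of 53.2% over 32841 promoters and 50.4% to 69.2% for the other members. Both strands were searched for TATAAA, the AP-1 type motif TGANTCA, the E-box CACGTG, the GC box GGGCGG and the CArG box bound by serum response factor. TATAAA was present in 12.4% of all promoters and, among these genes, was found for Uts2. Start sites of Ece1 held GGGCGG, present in 32.7% of all promoters, and CACGTG, present in 6.02%. TGANTCA, present in 6.75%, and the CArG box, present in 1.47%, had no match in any of the 11 windows.

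Genes around Uts2 had smaller changes than Uts2, which largely follows from the choice of Uts2 for its large fall. Within 500 kb, measured from the Uts2 start to the lowest coordinate of a gene, 6 genes were tested and 1 was called. Per3, a circadian repressor gene whose nearer end lies at 6.56 kb, had a log2 fold change of 0.26 (SE 0.18, edgeR adjusted p = 0.262). Vamp3, a vesicle fusion gene at 50.2 kb, rose from 103 ± 4.68 to 116 ± 1.02 CPM (log2 fold change 0.17, SE 0.047, edgeR adjusted p = 0.0106), a call lost without WT replicate 1 (adjusted p = 0.0651). Park7, Errfi1 and the pseudogene Rps15a-ps3 had log2 fold changes of 0.06, −0.03 and 0.02 and were not called. Within 1000 kb, 4 of 16 tested genes were called, with log2 fold changes between −0.38 and 0.41, beside 43.7% of all tested genes.

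**Figure D2:**
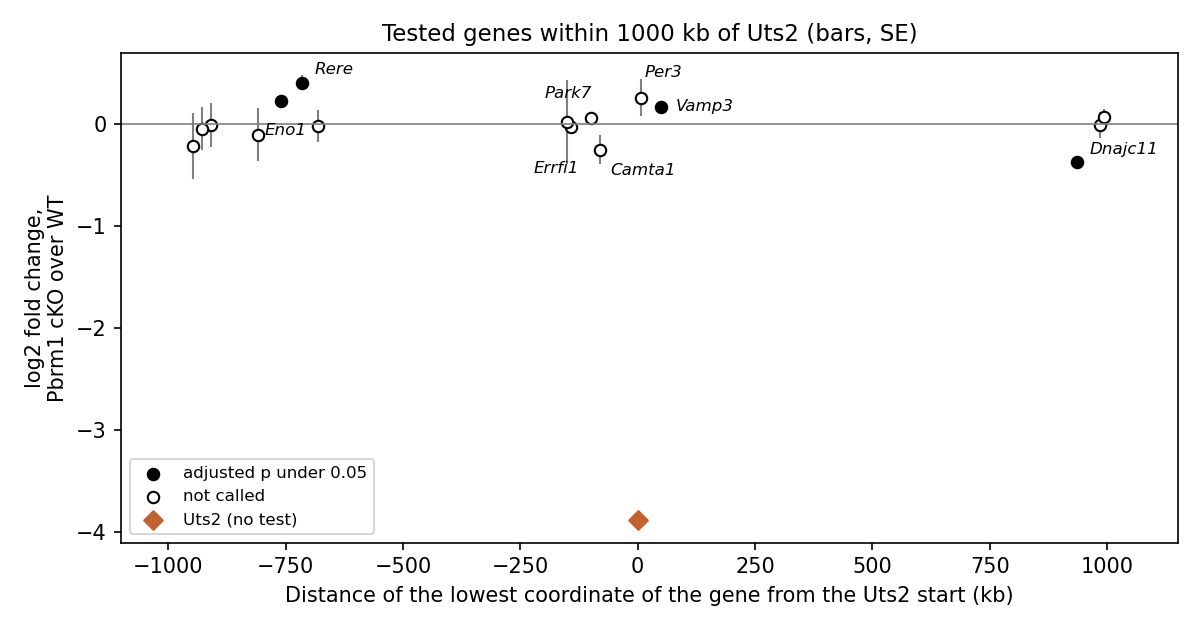
Log2 fold change of cKO over WT (vertical axis) against the distance of the lowest coordinate of a gene from the Uts2 start in kb (horizontal axis) for the 16 tested genes within 1000 kb, with SE as bars, filled where called, and Uts2 as a diamond. The neighbours lie between −0.38 and 0.41, while Uts2, chosen for its large fall, lies at −3.88.

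The genes whose level across the 6 libraries was most like that of Uts2 were found by the root mean square difference between centred log2(CPM + 0.5) profiles of protein-coding genes with a mean of at least 1 CPM. H2-Q2, a class I histocompatibility gene, was nearest (difference 0.149), with 8.37 ± 0.593 CPM in the controls and 0.167 ± 0.0893 CPM in the knockout cells. Pianp (0.501), the hepcidin gene Hamp2 (0.553), the cardiac actin gene Actc1 (0.564) and H2-Q10 (0.570) followed. Because 0.5 is added to the CPM, this likeness depends on level as well as on fold change. The log2 fold change was −5.55 for H2-Q2 and −3.85 for Pianp, against −3.88 for Uts2. Hamp2 had between 40 and 42 counts in the WT libraries and 0 in the cKO libraries. H2-Q2 and H2-Q10 belong to a family of near-identical genes, and their counts are uncertain because reads can match several copies. All 5 were lower in every cKO library than in any WT library, which the choice by likeness to Uts2 fixes.

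Edn1 (ENSMUSG00000021367.8, chr13:42301476-42307990, plus strand) encodes endothelin-1, the main endothelin of the vessel wall. Its CPM were 55.4, 58.0 and 55.7 in WT and 56.0, 49.8 and 59.3 in cKO libraries. The groups overlapped, and replicate 2 was the lowest of the cKO libraries. The difference on the log2 scale was −0.04 (SE 0.064, 95% interval −0.16 to 0.09), with an edgeR adjusted p of 0.674. The sign of this small difference turned without cKO replicate 2, to 0.035.

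Edn2 (ENSMUSG00000028635.7, chr4:120161206-120167360, plus strand), which encodes endothelin-2, known from the ovary as a contractile signal at ovulation, was near the lower limit of detection. The WT libraries held 13, 4 and 9 Edn2 counts, and the cKO libraries held 15, 18 and 21. The lowest cKO library stood just above the highest WT library, at 0.843 against 0.768 CPM. On the log2 scale this was a rise of 1.06 (SE 0.40) at an edgeR adjusted p of 0.0451, and the filter on low counts was passed through the cKO libraries. The call was lost in DESeq2 (adjusted p = 0.106) and when any of 5 of the 6 libraries was left out: WT replicate 2 (0.196) or 3 (0.0961), or cKO replicate 1 (0.0556), 2 (just past the threshold) or 3 (0.150).

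Edn3 (ENSMUSG00000027524.9, chr2:174760619-174784042, plus strand), which encodes endothelin-3, the ligand needed for melanocyte and enteric neuron precursors, was counted 2, 0 and 2 times in the WT libraries and once in each cKO library. Both groups were under the floor, so no fold change is given.

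The receptor Ednra (ENSMUSG00000031616.7, chr8:77663031-77724464, minus strand) was counted 256, 264 and 239 times in the WT libraries and 248, 292 and 196 times in the cKO libraries. The mean was 14.4 ± 0.623 CPM in WT and 14.02 ± 1.44 CPM in cKO cells (SD, n = 3), and the WT libraries lay within the cKO range. The log2 difference of −0.03 (SE 0.094, 95% interval −0.22 to 0.15) had an edgeR adjusted p of 0.796. It was −0.11 without cKO replicate 2, and the sign turned without cKO replicate 3 (0.032).

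Ednrb (ENSMUSG00000022122.15, chr14:103814625-103844402, minus strand) rose in the cKO cells. Its CPM were 6.09, 6.15 and 6.44 in WT and 12.1, 10.3 and 12.7 in cKO libraries, so every cKO library was well above every WT library. The mean went from 6.22 ± 0.189 to 11.7 ± 1.25 CPM (SD, n = 3), 189% of WT, with a log2 fold change of 0.91 (SE 0.11, edgeR adjusted p = 2.37e-05). Of all tested genes, 7.68% had a change of larger size. Without cKO replicate 2, the lowest of the cKO libraries, the log2 fold change was 1.00 (adjusted p = 1.61e-06).

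The balance of the receptor transcripts was compared within each library as the ratio of Ednra to Ednrb CPM per kb of exon length. It was 1.94, 1.79 and 1.69 in WT and 0.894, 1.17 and 0.771 in cKO libraries. The mean ratio was 1.81 ± 0.123 in WT and 0.944 ± 0.202 in cKO cells (SD, n = 3). As Ednra was not called, this shift mainly restates the rise of Ednrb. The transcripts went from an excess of Ednra to about equal levels, with Ednra still ahead in cKO replicate 2. The difference in log2 ratio was −0.95, and −1.12 without that library. An exact permutation test (two-sided) gave p = 0.10, the smallest value that 3 against 3 libraries allow.

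**Figure D3:**
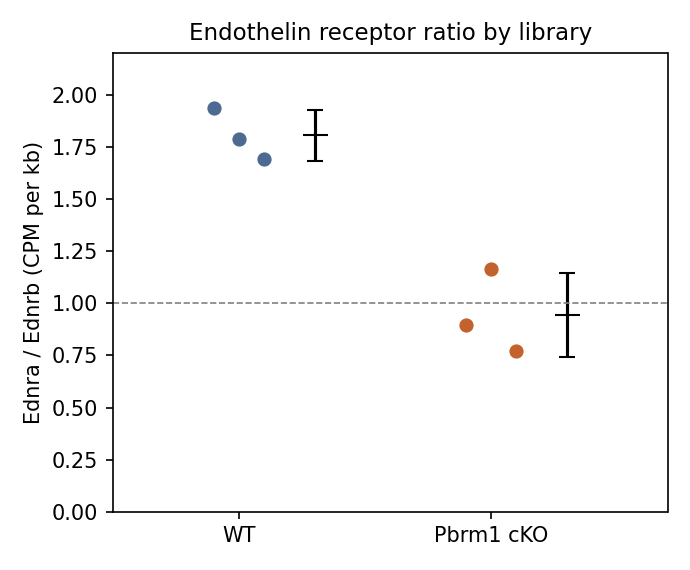
Ratio of Ednra to Ednrb in CPM per kb (vertical axis, from 0) in each library (points), with mean and SD as bars and a dashed line at equal levels. WT libraries lie between 1.69 and 1.94 and cKO libraries between 0.771 and 1.17.

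Ece1 (ENSMUSG00000057530.14, chr4:137862237-137965229, plus strand), the enzyme that cuts big endothelins to their active form, was abundant and fell in the cKO cells. Its CPM were 181, 191 and 176 in WT and 139, 126 and 139 in cKO libraries, and the groups did not overlap. The mean went from 183 ± 7.23 to 135 ± 7.37 CPM (SD, n = 3), 73.8% of WT, with a log2 fold change of −0.44 (SE 0.051, edgeR adjusted p = 1.42e-05). Without cKO replicate 2, here the cKO library farthest from WT, the log2 fold change was −0.39 (adjusted p = 3.53e-06). Of all tested genes, 24.3% had a change of larger size.

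Per kb of exon length, the order of levels in WT cells was Uts2 (44.3 CPM per kb), Ece1 (34.5), Edn1 (26.4), Ednra (2.63), Ednrb (1.46) and Edn2 (0.344), and the ranges of neighbours in this order did not overlap. In cKO cells Edn1 (25.7 CPM per kb) and Ece1 (25.4) overlapped at the top. Uts2 (2.95), Ednrb (2.75) and Ednra (2.56) overlapped below them, and Edn2 (0.718) was again the lowest of the members that passed the filter. Among the members, the most abundant peptide transcript per length was thus Uts2 in WT and Edn1 in cKO cells. This change of rank largely follows from the choice of Uts2 for its large fall.

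Of 11 listed genes for enzymes that make and degrade such peptides, 8 were tested. Beside 43.7% of all tested genes, 2 were called, 1 higher and 1 lower, and the median log2 fold change of the 8 was −0.03. Furin, a proprotein convertase and the most abundant of them, averaged 195 ± 20.9 CPM in the WT and 178 ± 18.9 CPM in the cKO libraries (edgeR adjusted p = 0.217), and was called, lower, without cKO replicate 2 (adjusted p = 0.0257). The list then held 4 called genes. Pcsk5, another convertase, rose from 32.3 ± 2.25 to 41.5 ± 1.55 CPM (log2 fold change 0.36, adjusted p = 0.000624). Mmel1, a membrane endopeptidase related to neprilysin, fell from 2.52 ± 0.606 to 0.209 ± 0.050 CPM, near the floor (log2 fold change −3.54). Mmel1 passed the filter on low counts only through the WT libraries, where it was higher. Its call, counted above as the lower one, is therefore a description only. Mmel1 lies on the same chromosome as Uts2, at chr4:154869585-154895528. Neprilysin itself (Mme) was at 2.54 ± 0.559 and 2.03 ± 0.335 CPM and was not called.

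Downstream of the receptors, all 26 listed genes of the Gq and G12/13 contraction pathway were tested. Of these, 9 were higher and 5 lower, 14 called in all against 43.7% of all tested genes, and the median log2 fold change was 0.07. Mylk, the myosin light chain kinase gene, rose most, with 179, 184 and 188 CPM in WT and 478, 360 and 471 CPM in cKO libraries (log2 fold change 1.25, edgeR adjusted p = 1.14e-07). For Mylk, replicate 2 was the cKO library nearest to WT, but for Ece1 it was the farthest.

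Genes of the Gq and phospholipase C step went both ways. Plcb1 (log2 fold change 0.63) and the Gq family member Gna14 (0.84) rose from low levels. The protein kinase C genes also went both ways. Prkcb (6.86 CPM in WT) rose by 0.32 and Prkcd (62.7 CPM) by 0.18. Prkca (68.1 CPM) was called lower (−0.29), and Prkce was not called. The inositol trisphosphate receptor genes Itpr1, Itpr2 and Itpr3, which encode calcium release channels, had log2 fold changes of −0.26, −0.57 and −0.37 and were called lower. The main Gq genes Gnaq (−0.11) and Gna11 (−0.01) were not called. The call of Gna14 was lost without WT replicate 3 (adjusted p = 0.0502). That of Prkcb was lost in DESeq2, without a filter and when WT replicate 2 or 3 or cKO replicate 1 or 2 was left out, with adjusted p between 0.0585 and 0.142.

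Of the 6 receptor kinase and arrestin genes, which end signaling of G protein-coupled receptors, 4 were higher and 1 was lower, beside 21.9% and 21.8% of all tested genes, and the median log2 fold change over the list was 0.34. Grk3 rose from 8.63 ± 0.952 to 16.5 ± 2.71 CPM (log2 fold change 0.93, edgeR adjusted p = 6.07e-05), Arrb2 by 0.75 (adjusted p = 1.08e-06) and Arrb1 by 0.38 (adjusted p = 0.000326). Grk5 (0.30, adjusted p = 0.0148) and Grk6 (−0.13, adjusted p = 0.0334) were called with small changes. Without WT replicate 2 or cKO replicate 1 both of these calls were lost and 3 genes of the list were called. The call of Grk5 was lost also without WT replicate 3 (adjusted p = 0.0510), and that of Grk6 without WT replicate 1 (0.121), in DESeq2 (0.0682) and with library size alone (0.0537).

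Other vasoactive and muscle-acting peptides were mostly at or near 0, and 9 of 22 listed genes were tested. Of these, 3 were higher and 1 was lower, a share close to the 43.7% of all tested genes, and the median log2 fold change was 0.31. Apln, the gene of the vasodilator apelin, lay between 3.58 and 3.92 CPM in the WT libraries and reached 21.4, 14.3 and 24.96 CPM in the cKO libraries (log2 fold change 2.41, edgeR adjusted p = 3.85e-07). Adm, the gene of the vasodilator adrenomedullin and the most abundant of the list, rose from 75.6 ± 2.82 to 131 ± 10.4 CPM (log2 fold change 0.79, adjusted p = 2.90e-07). Agt, the angiotensin precursor gene, rose from 1.93 ± 0.280 to 4.06 ± 0.169 CPM (log2 fold change 1.07, adjusted p = 0.000227). Npy, the gene of the vasoconstrictor neuropeptide Y, fell from 15.1 ± 1.21 to 6.44 ± 3.07 CPM (log2 fold change −1.21, adjusted p = 0.000408). In cKO replicate 2 Apln was the lowest and Npy the highest of the cKO group, both nearest to WT.

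**Figure D4:**
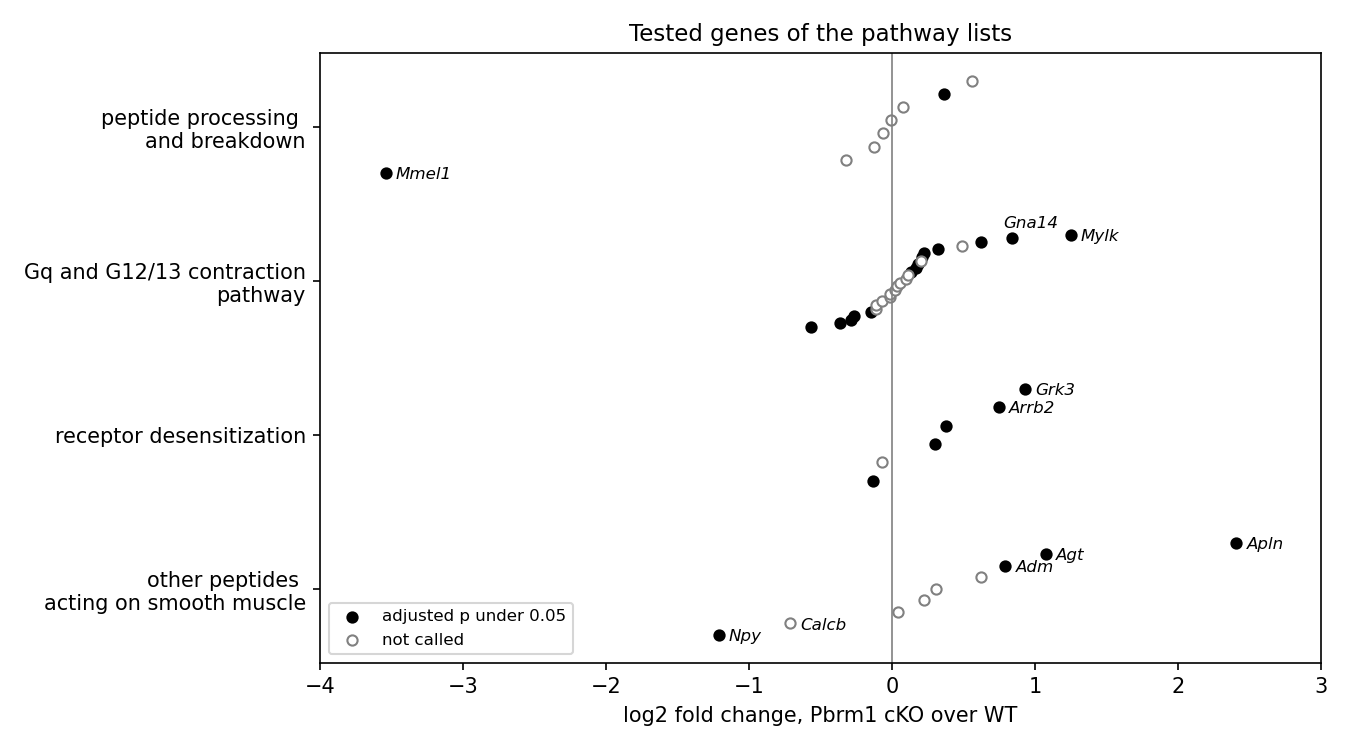
Log2 fold change of cKO over WT (horizontal axis) for each tested gene of 4 pathway lists (rows), filled where the adjusted p is under 0.05. Mmel1 at −3.54 and Apln at 2.41 lie farthest out, and most other genes lie between −1 and 1. Mmel1 passed the filter on low counts only through the WT libraries.

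Markers of smooth muscle and of other cell types moved with these genes, and their part in the results was not tested. The calls in every marker list stand beside 21.9% of all tested genes called higher and 21.8% called lower. Of the 10 smooth muscle markers, 5 were called higher and 1 lower, and their summed level went from 3498 to 3570 CPM in WT to 4272 to 4769 CPM in cKO libraries. Of 6 pericyte markers 5 were tested, with 4 called higher and 1, Cspg4, lower. The sum of the list was 105 to 123 CPM in WT and 90.2 to 111 CPM in cKO libraries. Cspg4, which made up most of this sum, set its direction and fell from 91.3 ± 9.84 to 55.9 ± 15.5 CPM. Rgs5 (4.70 to 6.85 CPM), Kcnj8 (4.06 to 11.4 CPM), Abcc9 (6.16 to 16.1 CPM) and Notch3 (5.18 to 7.80 CPM) rose. Beside the higher Ednrb, 10 of 12 listed leukocyte markers, all that were tested, were called higher. Of 10 epithelial markers 7 were called higher, as were 5 of 8 fibroblast markers, with 1 lower. The summed levels were 701 to 751 CPM in WT and 1001 to 1090 CPM in cKO libraries for leukocytes, 1112 to 1209 and 1349 to 1505 CPM for epithelium, and 3523 to 4105 and 4795 to 5208 CPM for fibroblasts. Of the melanocyte and glial markers, whose cell types are known to use EDNRB, Tyr and Tyrp1 had 0 counts and Sox10 did not reach the filter. Of 8 glial markers 3 were tested and 1 was called, Ngfr, which rose from 20.8 ± 1.99 to 28.1 ± 0.270 CPM. Erbb3 (12.8 and 11.9 CPM) was not called, and the glial sum was 33.1 to 37.1 CPM in WT and 40.02 to 42.9 CPM in cKO libraries. Of 5 melanocyte markers 1 was tested and none was called. Beside the lower Ece1, the summed level of 12 endothelial markers lay between 403 and 426 CPM in WT and between 357 and 370 CPM in cKO libraries, with 4 markers called higher and 1, Kdr, called lower, while Pecam1 and Cdh5 were not called. Kdr set the direction of this sum: the other 11 markers summed to 229 to 240.1 CPM in WT and 246 to 275 CPM in cKO libraries.

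Beside the lower Uts2, 4 of 6 mesothelial markers were called lower, against 21.8% of all tested genes. Their list had sums of 251 to 262 CPM in WT and 180 to 181 CPM in cKO libraries. Of 9 granulosa and luteal markers 5 were tested. Of these, 4 were called lower, the steroidogenic genes Cyp11a1, Star and Nr5a1 and the inhibin gene Inha. Foxl2 (1.46 and 1.13 CPM) was not called, and Amh, Fshr, Cyp19a1 and Lhcgr did not reach the filter. The sums, made up mostly of Cyp11a1 and Star, were 271 to 278 CPM in WT and 111 to 136 CPM in cKO libraries. Cyp11a1 fell from 152 ± 1.65 to 47.1 ± 13.6 CPM. In cKO replicate 2, which had the highest Uts2 of its group, Cyp11a1 was the lowest (31.5 CPM) and Star the highest (64.6 CPM) of the cKO libraries. Motor neurons are a known site of Uts2 expression, and of the neuronal markers Slc18a3 had 0 counts, and Chat, Snap25 and Elavl4 did not reach the filter. The other 3 of 7 were called, Tubb3 (6.88 to 11.3 CPM) and Syt1 (1.40 to 2.68 CPM) higher and Stmn2 (3.27 to 1.20 CPM) lower, and the list had sums of 10.8 to 13.3 CPM in WT and 13.5 to 17.2 CPM in cKO libraries.

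**Figure D5:**
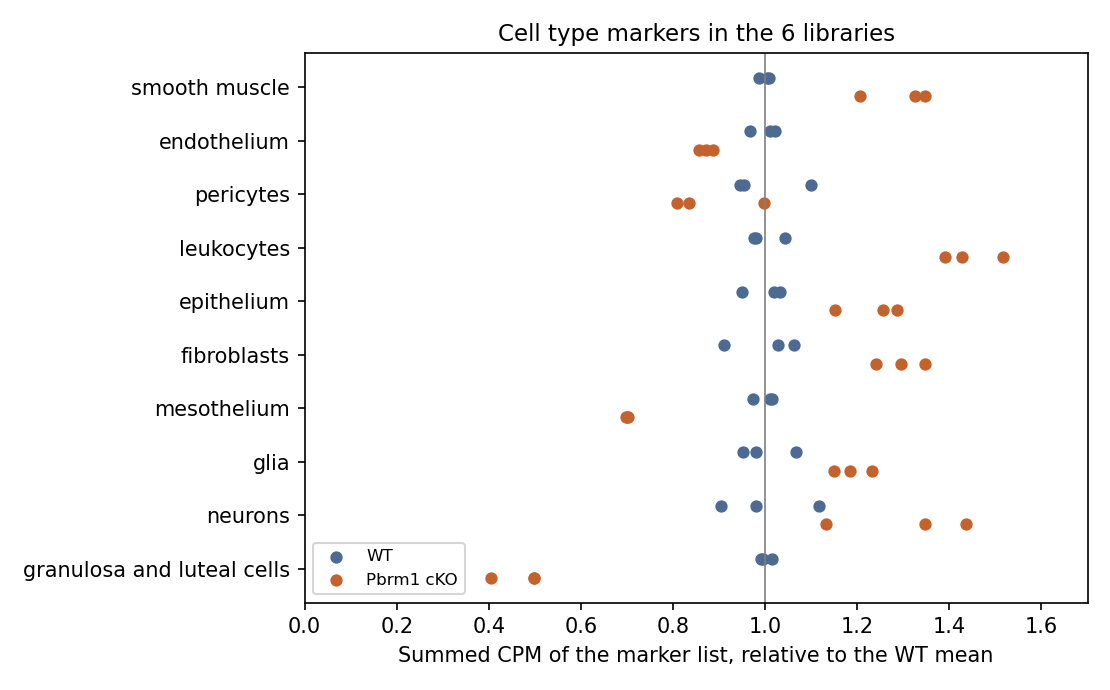
Summed CPM of each cell type marker list relative to its WT mean (horizontal axis, from 0) in the 3 WT and 3 cKO libraries (points), without the melanocyte list, which was near 0. Granulosa and luteal markers lie at 0.405 to 0.498 and mesothelial markers at 0.698 to 0.703 in cKO, while leukocyte markers lie at 1.39 to 1.52. The pericyte sum is mostly Cspg4 and the direction of the endothelial sum is set by Kdr.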

How the data were processed

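The authors deposited 1 table of read counts per gene for the 6 libraries. The file headers name featureCounts 1.6.4 in reverse-stranded mode over exons of the GENCODE M18 annotation, with defaults that drop multi-mapping reads. Per the submitters' processing notes, reads were trimmed with cutadapt and aligned with HISAT2 to GRCm38.p5. Libraries were made from total RNA with a mixture of primers, and targeted transcripts were depleted.

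Symbols were taken from GENCODE M21 on the same build (54079 of 54232 genes). edgeR 4.0.16 (R 4.3.3) was used for differences between groups, with TMM normalization, the filterByExpr filter and a two-sided quasi-likelihood F-test. P-values were adjusted by Benjamini-Hochberg over the 15376 genes kept, at a threshold of 0.05. On counts simulated for this comparison, 198 of 200 changed genes were recovered, with 5 false calls among 15332 genes tested. The changed genes were drawn only from well-counted genes, the same dispersion was used for all genes, and far fewer genes were changed than were called. The recovery therefore does not cover genes with low counts such as Edn2 and Mmel1, or spread that differs between genes. CPM use normalized library sizes. The members and gene lists were chosen with earlier results of these data known. Genes were named as all members, the called genes of each list up to 6 by size of change plus its most abundant one, up to 6 neighbours of Uts2, and the 5 genes most like Uts2. Any other gene was named after its values were seen. Some items that these rules cover are not reported here. Floors cover counting error only, because molecules were not tagged before amplification. Alternatives were DESeq2 1.42.0, limma-voom (limma 3.58.1), other size factors and filters, a replicate block, and leaving out each library.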

Additional observations from a re-analysis of the deposited data

How the results depend on the processing

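The fall of Ece1 and the rise of Ednrb passed the threshold under all 13 alternatives run, with log2 fold changes of −0.47 to −0.39 and 0.85 to 1.00. The log2 fold change of Uts2 lay between −4.10 and −3.74. Edn2 was called in 6 of 12 alternatives. It was not called in DESeq2 (log2 fold change 1.07), and its log2 fold change ranged from 0.68 to 1.49 when libraries were left out in turn. With at least 10 counts required in every library it was not tested. Leaving out libraries moved Edn1 between −0.093 and 0.035 and Ednra between −0.11 and 0.032, neither called. The peptide processing list held 1 called gene with at least 10 counts in every library and 2 to 4 when libraries were left out, and the receptor desensitization list 3 to 5. Within 1000 kb of Uts2, 4 genes were called. The log2 difference of the Ednra to Ednrb ratio lay between −1.12 and −0.82 without single libraries. The number of called genes lay between 4665, at an adjusted p under 0.01, and 7054.

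Libraries with the same replicate number did not deviate together (r = −0.032, 0.044 and 0.11), so the numbers were not taken to pair them, and not every library correlated best with its own number. With the replicate as a block, 6908 genes were called, and 6617 of these were also called when no block was used. The block changed no call of a member. It did bring a call of Furin (adjusted p = 0.0237), as did omitting the filter (0.0355).

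Depth limits Edn2, Edn3 and Uts2r, whose counts per library were at most 21, 2 and 1.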
